A study of Homo sapiens with 9 samples.

Results

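Prostaglandin E2 is a lipid signal made from arachidonic acid in 3 enzymatic steps, and the 8 genes described here cover its synthesis, its sensing and its breakdown. They are PLA2G4A, PTGS1, PTGS2, PTGES, PTGES2, PTGES3, PTGER4 and HPGD. They were picked by name from the 60719 genes of the expression table, because PTGS2 had earlier been seen to lie higher in one of the groups than in both others in these same libraries. Their differences between the groups are therefore given as values with intervals; the counts of members called in the fit over all genes only describe, and nothing is read from them. All 8 were found in the table, and 7 passed the filter on low values of at least 1 TPM, a length-corrected share of all transcripts, in at least 3 of the 9 libraries; HPGD did not.

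RNA sequencing was done on MDA-MB-231 cells, an established human breast cancer line of the triple-negative, mesenchymal-like kind, after 72 h of incubation in medium with 5% exosome-free serum. The cells of the TIS sEV group received small extracellular vesicles (sEV), the small membrane particles that cells shed, from MDA-MB-231 donors treated with 100 ng/ml nocodazole, a drug that stops microtubule assembly, for 72 h and then left for 72 h in exosome-depleted medium; TIS stands for therapy-induced senescence, a lasting growth arrest. The cells of the Cont sEV group received vesicles from donors given DMSO, the solvent, on the same schedule, and the cells of the No sEV group received none. Each group had 3 libraries, the recipient cells were labelled wild type in all of them, and the vesicles were isolated by differential centrifugation. Donors and recipients were the same single line, so a transcript carried in by vesicles cannot be told apart from one made by the recipient, and an effect of senescent donors cannot be told apart from one of nocodazole carried over. The labels do not say whether the libraries came from separate cultures, so p-values and intervals rest on how far these libraries lie apart, and that may be technical spread.

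In this pathway cytosolic phospholipase A2 frees arachidonic acid from membrane lipids, a cyclooxygenase turns it into prostaglandin H2, and a terminal synthase turns that into prostaglandin E2. The product leaves the cell and acts through 4 receptors, EP1 to EP4, until it is taken up and oxidised. Cyclooxygenase 1, from PTGS1, is made steadily in many tissues, while cyclooxygenase 2, from PTGS2, is induced by cytokines and growth signals, is made by many carcinomas and is a target of anti-inflammatory drugs. Cells in senescence can make prostaglandin E2 as part of their secretions.

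The deposited values were TPM per gene, which keep no read depth, so the depth of each library is unknown. Between 21292 and 21975 genes had a value above 0. For genes that averaged at least 5 TPM, log2 values correlated across genes at 0.989 to 0.994 between libraries of one group. Between libraries of different groups the range was 0.988 to 0.994. All 7 markers listed for this kind of breast cancer line, VIM, CD44, EGFR, AXL, CAV1, KRT18 and MSN, passed the filter. VIM had 2206 to 2299 TPM and CD44 428 to 514 TPM over the 9 libraries, and the keratin KRT18 averaged 419 TPM. The luminal markers ESR1, PGR, FOXA1 and CDH1 averaged 0.0553, 0.00924, 0.328 and 0.238 TPM. The other 4 of the 8 luminal markers passed the filter, with KRT19 at 416 TPM, ERBB2 at 28.1 TPM, EPCAM at 23.02 TPM and GATA3 at 3.48 TPM on average, and the list summed to 469 to 503 TPM in TIS sEV, 459.9 to 464 TPM in Cont sEV and 459.5 to 479 TPM in No sEV. Of the lists for other cell types, 2 of 8 leukocyte, 2 of 7 fibroblast and 2 of 6 endothelial markers passed. Their summed levels were 155 to 164 TPM in TIS sEV, 150 to 163 in Cont sEV and 154 to 159 in No sEV for leukocytes, nearly all of it CD68, with PTPRC at no more than 1.41 TPM and TYROBP at 0. The fibroblast sums were 8.85 to 12.1, 8.43 to 9.68 and 9.58 to 10.5 TPM in the same order of groups, and the endothelial sums 5.66 to 5.89, 6.10 to 6.55 and 6.21 to 6.60 TPM, with CLDN5 at 0. The part of these markers in the results below was not tested.

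The cells carried the mRNAs of a nearly complete prostaglandin E2 route, with the inducible enzymes at high level and the breakdown enzyme close to absent. PTGES3 was the most abundant of the 8, at percentile 97.0 of the 13879 tested genes by mean TPM, and PTGS2 came next, at percentile 92.3. PTGES stood at percentile 89.1, PTGES2 at 75.8, PLA2G4A at 42.9, PTGER4 at 33.5 and PTGS1 at 7.58, with HPGD below the filter. TPM is corrected for transcript length, so these levels can be set against each other. The ranges over the 9 libraries of neighbours in this order did not overlap anywhere along it. Every member that passed the filter kept its level within narrow limits: the highest library exceeded the lowest by a factor of 1.07 for PTGES3, 1.19 for PTGS2 and at most 1.33, for PTGS1.

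**Figure D1:**
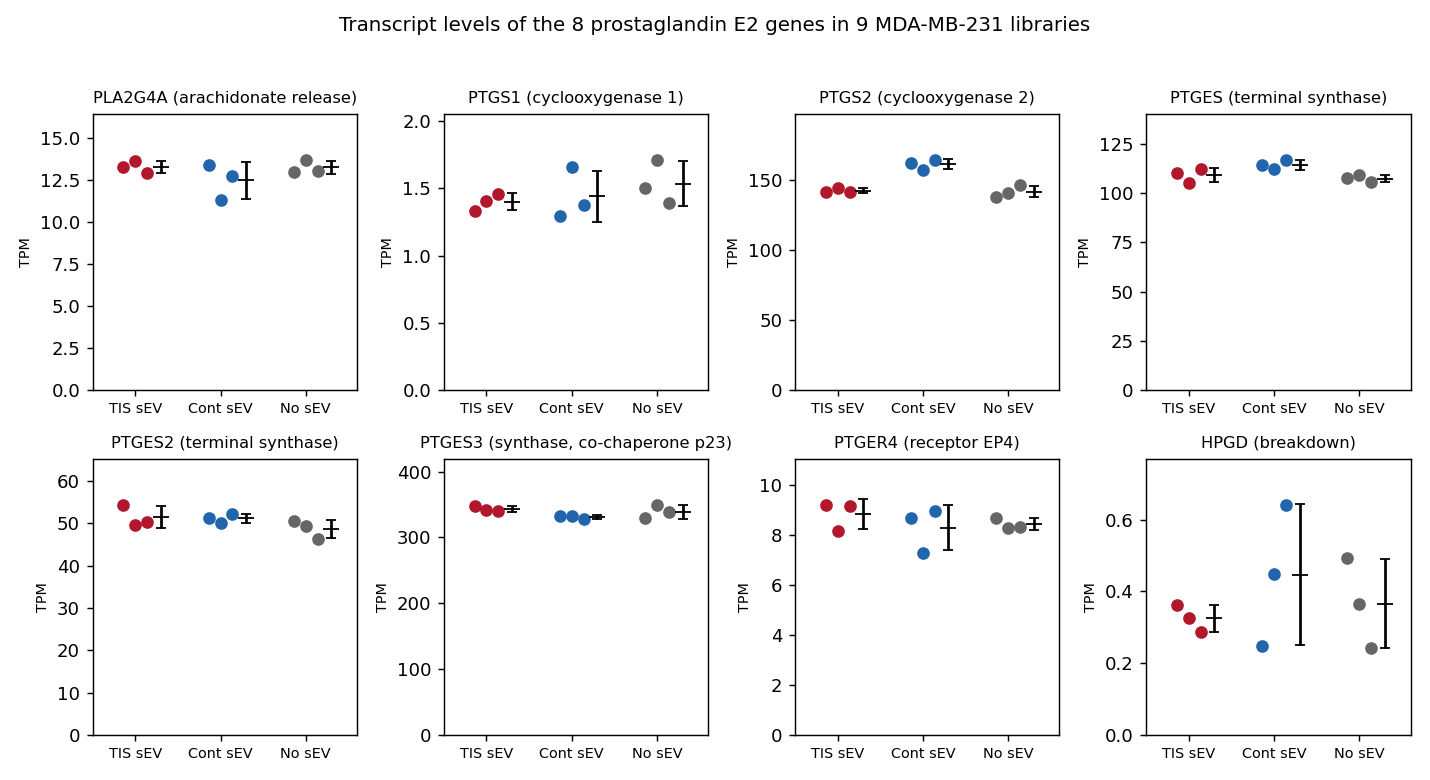
Level of the 8 genes in TPM in each of the 9 libraries, one panel per gene, with TIS sEV, Cont sEV and No sEV from left to right; points are libraries and the bars give mean ± SD (n = 3). The PTGS2 and PTGES points of Cont sEV lie above all points of both other groups, while those of TIS sEV and No sEV overlap. For PTGES this is only just so, with the lowest Cont sEV library at 112.28 TPM and the highest TIS sEV library at 112.243 TPM.

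PLA2G4A encodes cytosolic phospholipase A2 alpha, the enzyme that releases arachidonic acid when calcium rises. It lies on chromosome 1 at 186828953 to 186988981 on the plus strand (GRCh38). It had 13.3, 13.6 and 12.9 TPM in the TIS sEV libraries, against 13.4, 11.3 and 12.8 TPM in Cont sEV and 12.97, 13.7 and 13.1 TPM in No sEV. The 3 groups overlapped, with means of 13.3 ± 0.360, 12.5 ± 1.08 and 13.3 ± 0.412 TPM (SD, n = 3 each). On the scale of log2(TPM + 1), used for all differences here, TIS sEV minus Cont sEV was 0.08 (95% confidence interval -0.06 to 0.23). The gene is a neighbour of PTGS2, with 148525 bases between them that hold 1 annotated gene, the non-coding PACERR, and 0 protein-coding genes. Of the pair, PTGS2 was highest in Cont sEV and PLA2G4A was not.

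PTGS2 (ENSG00000073756.12) lies on chromosome 1 at 186671791 to 186680427 on the minus strand (GRCh38). It had 142, 145 and 141 TPM in the TIS sEV libraries, 162, 157 and 165 TPM in the Cont sEV libraries and 138, 141 and 146 TPM in the No sEV libraries. The 3 Cont sEV libraries were above all 6 others, and the TIS sEV and No sEV libraries were intermingled. The means were 142 ± 1.75, 161 ± 3.70 and 142 ± 4.03 TPM (SD, n = 3 each). TIS sEV minus Cont sEV was -0.18 (SE 0.03, interval -0.25 to -0.11), a 0.884-fold level, and TIS sEV minus No sEV was 0.01 (interval -0.06 to 0.08). Cont sEV minus No sEV was 0.19 (interval 0.12 to 0.25), or 1.14-fold. Each pair of these comparisons shares a group, so the 3 values are not independent of each other.

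These intervals are those of single genes and take no account of PTGS2 having been picked for this pattern. In a fit of limma over all 13879 tested genes, with Benjamini-Hochberg adjustment at 0.05, 0 of the 7 members that passed the filter were called in any comparison. The same fit called 13 genes between TIS sEV and Cont sEV, 0.0937% of those tested (0.0432% higher and 0.0504% lower in TIS sEV), 1 gene between TIS sEV and No sEV, 0.00721%, and 0 genes between Cont sEV and No sEV, 0.00%. At an unadjusted p under 0.05 the shares of all tested genes were 10.0%, 7.97% and 6.03%, and the members numbered 1, 0 and 2 of 7.

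By separation of the groups, 3 of the 7 members had TIS sEV and Cont sEV libraries that did not overlap: PTGS2 and PTGES, lower in TIS sEV, and PTGES3, higher in TIS sEV. Over all tested genes that share was 15.4%, made up of 10.9% higher and 4.47% lower in TIS sEV. Between TIS sEV and No sEV, 0 of the 7 were separate, against 14.1% of all tested genes. Between Cont sEV and No sEV, PTGS2 and PTGES were separate and higher in Cont sEV, as were 6.72% of all tested genes, out of 11.2% separate in either direction. Both had all 3 Cont sEV libraries above all 6 others, a pattern held by 212 genes, 1.53% of those tested. PTGS2 was picked on this pattern, so its place in these counts supports nothing.

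The mitochondrially encoded mRNAs took 1.69 to 2.07% of all TPM in TIS sEV, 2.14 to 2.84% in Cont sEV and 2.04 to 2.41% in No sEV. With those genes left out of the total, PTGS2 gave -0.19 for TIS sEV minus Cont sEV and 0.19 for Cont sEV minus No sEV. In these bulk libraries, fewer cells with PTGS2 mRNA and less of it per cell cannot be told apart.

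**Figure D2:**
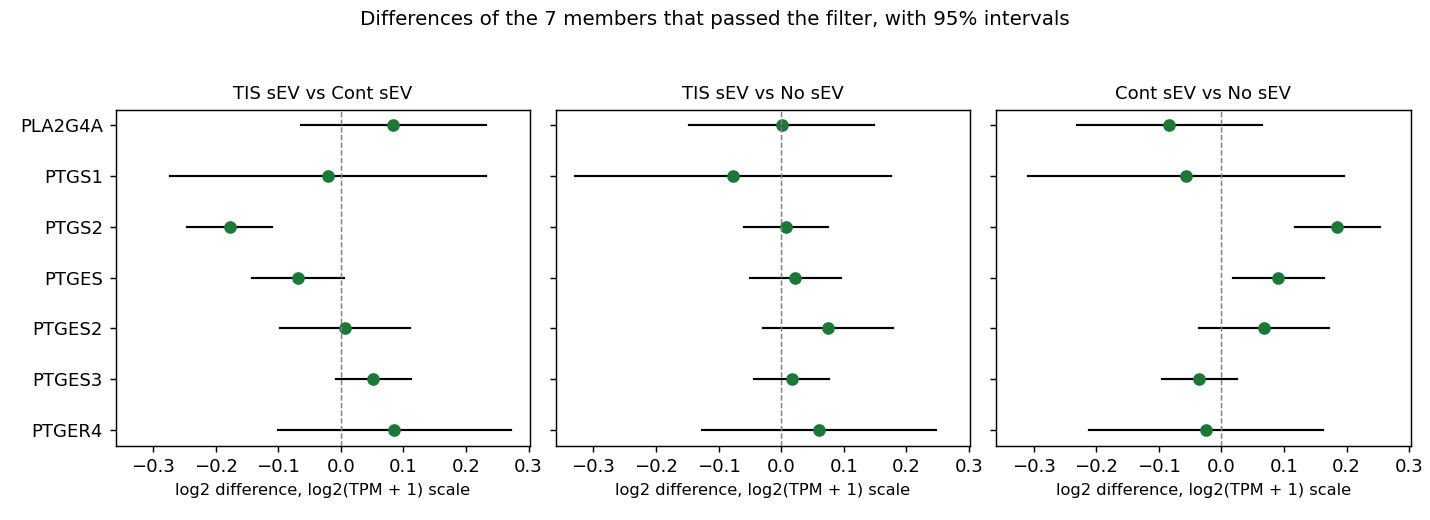
Difference between groups in log2(TPM + 1) for the 7 members that passed the filter, for TIS sEV minus Cont sEV, TIS sEV minus No sEV and Cont sEV minus No sEV; points are estimates from the fit over all genes and bars are 95% confidence intervals, with 0 marked. PTGS2 has intervals that leave out 0 where Cont sEV is compared, at -0.18 and 0.19, and one that spans 0 where it is not.

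PTGS2 mRNA is known for an AU-rich stretch early in its 3′ untranslated region, which RNA-binding proteins recognise and which makes the mRNA short-lived. In the GENCODE 29 annotation that region is 2562 bases long and holds 22 copies of the motif ATTTA, 8.59 per kilobase. Of 18958 coding genes, 1.88% hold as many copies and 2.34% are as dense, and the median gene holds 1 in 871 bases. A window of 30 bases that starts at base 8 after the stop codon holds 3 overlapping copies. It is shown as DNA in the sense of the mRNA, at chr1:186674316-186674345 on the minus strand of GRCh38, with the overlapping copies in capitals.
PTGS2 AU-rich window: atgatcatATTTATTTATTTAtatgaacca
The other members differ in this feature. PTGER4 holds 9 copies in 1357 bases, PTGES3 6 in 1136, HPGD 5 in 1779, PLA2G4A 4 in 473, PTGS1 3 in 3159, PTGES 1 in 1280 and PTGES2 0 in 452. PLA2G4A is thus almost as dense as PTGS2, at 8.46 copies per kilobase. PTGES has 0.781 copies per kilobase. Whether the motif bears on the differences between groups was not tested.

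The promoters of PTGS2, PTGS1 and PTGES are shown because the text compares the inducible with the steady cyclooxygenase, and PTGS2 with the synthase that, though only just, shared its pattern. Each is the 250 bases before the start in the RefSeq table for GRCh38.p14, 5′ to 3′ in the sense of the gene, with matches to 6 short motifs in capitals. The windows are chr1:186680424-186680673 on the minus strand for PTGS2, chr9:122370283-122370532 on the plus strand for PTGS1 and chr9:129753043-129753292 on the minus strand for PTGES.
PTGS2 promoter: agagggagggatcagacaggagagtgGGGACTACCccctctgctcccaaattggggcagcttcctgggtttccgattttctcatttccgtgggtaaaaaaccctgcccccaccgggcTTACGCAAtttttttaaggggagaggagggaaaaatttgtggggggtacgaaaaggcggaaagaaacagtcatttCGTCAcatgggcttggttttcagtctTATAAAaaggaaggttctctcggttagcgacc
PTGS1 promoter: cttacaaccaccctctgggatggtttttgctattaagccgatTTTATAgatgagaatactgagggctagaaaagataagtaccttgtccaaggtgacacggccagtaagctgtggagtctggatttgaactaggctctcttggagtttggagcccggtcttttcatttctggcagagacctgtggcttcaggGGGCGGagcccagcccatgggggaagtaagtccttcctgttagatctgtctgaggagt
PTGES promoter: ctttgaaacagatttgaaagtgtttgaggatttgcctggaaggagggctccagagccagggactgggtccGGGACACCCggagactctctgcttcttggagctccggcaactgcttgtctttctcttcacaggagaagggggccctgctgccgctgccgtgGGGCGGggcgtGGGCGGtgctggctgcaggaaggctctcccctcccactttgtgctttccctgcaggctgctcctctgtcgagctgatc

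Both strands of each window were searched. The PTGS2 window holds 1 match to the NF-kB motif GGGNNTNCC, 224 bases before the start, 1 to the C/EBP motif TTNNGNAA, at 133 bases and read on both strands, 1 to the short cAMP response motif CGTCA, at 58 bases, and a TATAAA box at 32 bases. The PTGES window holds 1 NF-kB match, on the minus strand at 180 bases, and 2 GC boxes of letters GGGCGG, at 89 and 78 bases. The PTGS1 window holds 1 GC box, at 58 bases, and TATAAA on the minus strand at 208 bases. None of the 3 windows holds the AP-1 motif TGANTCA. Of 35116 promoter windows of this length, 18.2% hold the NF-kB motif, 33.2% the C/EBP motif, 21.2% the cAMP response motif, 10.7% TATAAA, 42.6% a GC box and 6.57% the AP-1 motif. A match is a run of letters and was not tested for binding.

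The non-coding gene PACERR starts 195 bases from the start of PTGS2 on the opposite strand, and 52 bases of it fall in the window printed for PTGS2. It is known as an antisense RNA of the PTGS2 promoter region. It was below the filter, with 1.03, 0.449 and 0.407 TPM in TIS sEV, against 0.366, 0.134 and 0.273 TPM in Cont sEV and 0.391, 0.306 and 0.435 TPM in No sEV. The first TIS sEV library was the highest, all 3 TIS sEV libraries were above those of Cont sEV, and both overlapped with No sEV. The closest were 0.407 TPM in TIS sEV and 0.366 TPM in Cont sEV, and the counting error of values this low is unknown. Of all tested genes, 10.9% were separate in that direction. PACERR is not among the tested genes, and the share for genes below the filter was not counted.

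PTGS1, the steady cyclooxygenase, lies on chromosome 9 at 122370530 to 122395703 on the plus strand. It had 1.33, 1.41 and 1.46 TPM in TIS sEV, against 1.29, 1.66 and 1.37 TPM in Cont sEV and 1.51, 1.72 and 1.39 TPM in No sEV. The groups overlapped, and TIS sEV minus Cont sEV was -0.02 (interval -0.27 to 0.23), which is too wide to show a difference of the size seen for PTGS2. PTGS2 made up 98.8 to 99.2% of the summed TPM of both cyclooxygenase genes in every library. The ratio of PTGS2 to PTGS1 was 102 ± 4.86 in TIS sEV, 113 ± 16.1 in Cont sEV and 93.1 ± 11.6 in No sEV (SD, n = 3 each). PTGS2 and PTGS1 transcripts share 0% of their 31-base words with transcripts of any other gene, so reads of this length or longer are not split between them.

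PTGES encodes microsomal prostaglandin E synthase 1, the inducible synthase that works together with cyclooxygenase 2. It lies on chromosome 9 at 129738331 to 129753047 on the minus strand. It had 110.2, 106 and 112 TPM in the TIS sEV libraries, 114, 112 and 117 TPM in the Cont sEV libraries and 108, 109 and 106 TPM in the No sEV libraries. All 3 Cont sEV libraries were above the 6 others, but only just: the lowest of Cont sEV was at 112.280 TPM and the highest of TIS sEV at 112.243 TPM. The means were 109 ± 3.45, 115 ± 2.49 and 108 ± 1.95 TPM (SD, n = 3 each). TIS sEV minus Cont sEV was -0.07 (interval -0.14 to 0.005) and Cont sEV minus No sEV was 0.09 (interval 0.02 to 0.16), or 1.07-fold. The TIS sEV level differed from that of No sEV by 0.02 (interval -0.05 to 0.10). PTGS2 exceeded PTGES by a factor of 1.30 ± 0.0577 in TIS sEV, 1.41 ± 0.00721 in Cont sEV and 1.32 ± 0.0568 in No sEV. Of the 31-base words in PTGES transcripts, 7.83% occur in other genes too.

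The PTGES2 gene makes microsomal prostaglandin E synthase 2, which is found in many tissues and is not induced in the same way. It lies on chromosome 9 at 128120693 to 128128462 on the minus strand. It had 54.4, 49.5 and 50.3 TPM in TIS sEV, against 51.3, 50.0 and 52.2 TPM in Cont sEV and 50.5, 49.4 and 46.4 TPM in No sEV. The groups overlapped, and the difference was 0.01 for TIS sEV minus Cont sEV (interval -0.10 to 0.11) and 0.07 for TIS sEV minus No sEV (interval -0.03 to 0.18).

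PTGES3 encodes p23, a co-chaperone of HSP90 that is also named cytosolic prostaglandin E synthase. It lies on chromosome 12 at 56663341 to 56688408 on the minus strand. It had 348, 341 and 340 TPM in TIS sEV, 333, 332 and 328 TPM in Cont sEV and 329, 350 and 339 TPM in No sEV. TIS sEV and Cont sEV did not overlap, with means of 343 ± 4.58 and 331 ± 2.70 TPM, and No sEV, at 339 ± 10.4 TPM, spanned nearly the whole range of both (SD, n = 3 each). TIS sEV minus Cont sEV was 0.05, with an interval of -0.01 to 0.11, so the order is the reverse of that of PTGS2 and PTGES. Of its 31-base words, 11.8% occur in other genes and 7.97% in the pseudogene PTGES3P1, so some of its reads may be split. PTGES3P1 had 4.27 ± 0.466 TPM in TIS sEV, 3.76 ± 0.769 TPM in Cont sEV and 4.70 ± 0.462 TPM in No sEV.

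Among the 3 synthase genes, PTGES3 took 68.1 ± 0.587% of the summed TPM in TIS sEV, 66.6 ± 0.633% in Cont sEV and 68.4 ± 0.801% in No sEV. PTGES took 21.7 ± 0.573%, 23.1 ± 0.444% and 21.7 ± 0.338% in the same groups, and PTGES2 10.2 ± 0.350%, 10.3 ± 0.192% and 9.84 ± 0.471% (SD, n = 3 each). The mix of synthase mRNAs thus moved by under 2 percentage points.

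PTGER4 encodes EP4, a receptor that raises cyclic AMP when prostaglandin E2 binds. It lies on chromosome 5 at 40679498 to 40693735 on the plus strand. It had 9.20, 8.14 and 9.17 TPM in TIS sEV, against 8.66, 7.26 and 8.95 TPM in Cont sEV and 8.69, 8.26 and 8.32 TPM in No sEV. The groups overlapped, and TIS sEV minus Cont sEV was 0.09 (interval -0.10 to 0.27). The other EP receptors were below the filter, with PTGER2 at no more than 0.845 TPM, PTGER3 at no more than 0.182 TPM and PTGER1 at no more than 0.0353 TPM in any library. PTGER4 was therefore the most abundant EP receptor mRNA in every library.

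HPGD encodes 15-hydroxyprostaglandin dehydrogenase, which starts the breakdown of prostaglandin E2. It lies on chromosome 4 at 174490177 to 174523154 on the minus strand. It had 0.363, 0.325 and 0.287 TPM in TIS sEV, against 0.248, 0.449 and 0.642 TPM in Cont sEV and 0.492, 0.365 and 0.242 TPM in No sEV. The groups overlapped, and the highest library exceeded the lowest by a factor of 2.66. The counting error of values this low is unknown, and no test was made.

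Across the 9 libraries, the log2 values of PTGS2 and of its neighbours in the pathway went together to different degrees. Pearson's r with PTGS2 was 0.727 for PTGES, 0.166 for PTGES2, -0.210 for PTGER4, -0.275 for PTGS1, -0.397 for PLA2G4A and -0.588 for PTGES3. These describe 9 points that fall in 3 groups and share their libraries, and no test was made of them. Among the 10477 other tested genes that averaged 5 TPM or more, 4 of the 5 most like PTGS2 were SYNJ2 at r 0.974, CDH11 at 0.917, ZNF770 at 0.914 and NCOA5 at 0.911. SYNJ2 encodes a phosphatase of inositol lipids, CDH11 a cadherin of mesenchymal cells, ZNF770 a zinc finger protein and NCOA5 a coregulator of nuclear receptors. SYNJ2 had 30.5, 29.8 and 30.2 TPM in TIS sEV, against 34.0, 33.7 and 34.7 TPM in Cont sEV and 30.01, 29.9 and 30.98 TPM in No sEV. The mean of Cont sEV was 113% of that of No sEV for SYNJ2 and 114% for PTGS2, and it was 109.5% for CDH11, 107% for ZNF770 and 117% for NCOA5.

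**Figure D3:**
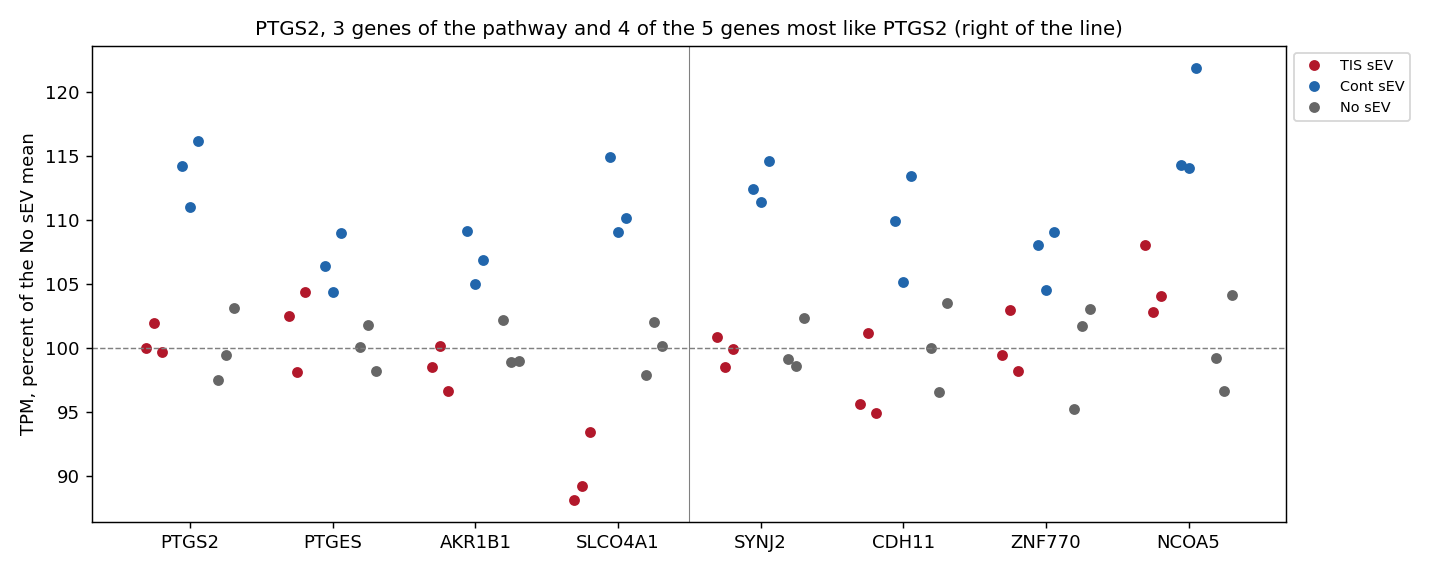
TPM in each library as a percentage of the No sEV mean (dashed line) for PTGS2, the pathway genes PTGES, AKR1B1 and SLCO4A1, and, right of the vertical line, 4 of the 5 genes whose log2 values correlate best with PTGS2 over the 9 libraries; each point is a library, with TIS sEV left, Cont sEV in the middle and No sEV right, and the axis does not start at 0. The Cont sEV mean of PTGS2 is at 114% and that of SYNJ2 at 113%, SLCO4A1 has TIS sEV below No sEV, and these 4 genes were picked for their likeness.

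Besides the 8 members, 10 lists of related genes were measured, 139 symbols in all, of which 107 genes passed the filter. Of these 107, 1 was called between TIS sEV and Cont sEV, 0 between TIS sEV and No sEV and 0 between Cont sEV and No sEV. At an unadjusted p under 0.05 there were 23, 19 and 9, or 21.5%, 17.8% and 8.41% of the 107, against 10.0%, 7.97% and 6.03% of all tested genes. The lists were chosen with earlier results of these data known, so nothing is read from these counts, here or for single lists below. In TIS sEV 79 of the 107 were higher and 28 lower than in Cont sEV, with a median difference of 0.03 beside 0.02 over all tested genes, of which 59.6% were higher. Against No sEV, 80 were higher and 27 lower in TIS sEV. The median was 0.04 beside 0.03 over all tested genes, of which 66.7% were higher. After median-of-ratios rescaling, the median over all tested genes was 0.0005 for TIS sEV minus Cont sEV and -0.0003 for TIS sEV minus No sEV. Counts of higher and lower genes thus depend on the scaling. Of 597 medians of single lists recomputed under other settings, 55 moved by at least the replicate SD and 46 had the other sign.

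Between TIS sEV and Cont sEV the called gene was SLCO4A1, which encodes an organic anion transporter for which prostaglandin E2 is a reported substrate, in the list for breakdown and transport. It fell to 81.4, 82.4 and 86.3 TPM in TIS sEV, against 106, 101 and 102 TPM in Cont sEV, and had 90.4, 94.3 and 92.6 TPM in No sEV. TIS sEV minus Cont sEV was -0.30 (SE 0.03, limma with Benjamini-Hochberg adjusted p = 0.0227), and the 3 groups were all separate. Over all tested genes, 4.47% were separate and lower in TIS sEV than in Cont sEV and 2.77% lower than in No sEV. Separate and higher in Cont sEV than in No sEV were 6.72%. Unlike PTGS2, SLCO4A1 also had its TIS sEV libraries below those of No sEV, at -0.15 (limma adjusted p = 0.347), and Cont sEV minus No sEV was 0.15 (limma adjusted p = 0.640). The call between TIS sEV and Cont sEV was lost without TIS sEV replicate 1 (limma adjusted p = 0.0945), TIS sEV replicate 2 (0.0921), Cont sEV replicate 1 (0.0545), Cont sEV replicate 2 (0.0771), Cont sEV replicate 3 (0.102) or No sEV replicate 3 (0.0521). Over all 20 alternatives the adjusted p ran from 0.0110 to 0.119, the difference from -0.33 to -0.28, and 11 kept the call. The other 5 tested genes of that list included PTGR1, a reductase of prostaglandins, at 47.9 ± 1.94 TPM in TIS sEV, 47.8 ± 0.633 TPM in Cont sEV and 48.5 ± 1.81 TPM in No sEV. PTGR2, a second such reductase, averaged 19.5 ± 1.92, 20.1 ± 1.46 and 18.5 ± 1.94 TPM in these groups, and ABCC4, an exporter of prostaglandins, 12.0 ± 0.439, 13.05 ± 0.648 and 12.5 ± 0.577 TPM.

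The enzymes of the other prostanoids were led by AKR1B1, aldose reductase, which can make prostaglandin F2 alpha. AKR1B1 had 638, 649 and 626 TPM in TIS sEV, against 707, 680.4 and 692 TPM in Cont sEV and 662, 641 and 641 TPM in No sEV. As with PTGS2, all 3 Cont sEV libraries were above the 6 others, a pattern held by 1.53% of all tested genes. The r of AKR1B1 with PTGS2 over the 9 libraries was 0.867, rank 23 of 10477. TIS sEV minus Cont sEV was -0.12 (limma adjusted p = 0.161) and Cont sEV minus No sEV was 0.10 (limma adjusted p = 0.712), so it was not called. AKR1C3, another aldo-keto reductase with that activity, averaged 29.01 ± 2.56 TPM in TIS sEV, 33.1 ± 2.02 TPM in Cont sEV and 29.5 ± 2.27 TPM in No sEV. CBR1, a carbonyl reductase that converts prostaglandin E2, averaged 119 ± 4.59, 108 ± 2.77 and 113 ± 6.36 TPM in the same groups. In this list 3 of 6 tested genes were higher and 3 lower in TIS sEV than in Cont sEV, beside 59.6% higher over all tested genes. Of the 6, 4 had an unadjusted p under 0.05, beside 10.0% of all tested genes, and 0 were called. TBXAS1, thromboxane synthase, averaged 2.66 ± 0.0642 TPM in TIS sEV, 3.13 ± 0.130 TPM in Cont sEV and 3.04 ± 0.339 TPM in No sEV. The synthases of prostaglandins D2 and I2 did not pass the filter, with PTGDS at no more than 0.0913 TPM, HPGDS at no more than 0.0301 TPM and PTGIS at no more than 0.0128 TPM.

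The list of PTGS2 inducers and transcription factors had 22 tested genes, 14 higher and 8 lower in TIS sEV than in Cont sEV, with a median of 0.05; limma called 0, and 9 had an unadjusted p under 0.05, against 10.0% of all tested genes, of which 59.6% were higher. Against No sEV, 18 were higher and 4 lower in TIS sEV, with 0 called and 7 at that unadjusted level; of all tested genes, 66.7% were higher in TIS sEV and 7.97% reached it. JUN, a subunit of AP-1, had 108, 114 and 117 TPM in TIS sEV, 98.6, 96.2 and 95.1 TPM in Cont sEV and 104, 107 and 103 TPM in No sEV. Its Cont sEV libraries were the lowest, the reverse of PTGS2, and the difference of 0.23 for TIS sEV minus Cont sEV was not called (limma adjusted p = 0.0640). CEBPD, a C/EBP factor, likewise had 19.1, 21.6 and 22.3 TPM in TIS sEV, 16.2, 17.0 and 15.3 TPM in Cont sEV and 18.2, 20.1 and 18.6 TPM in No sEV, with a difference of 0.36 between TIS sEV and Cont sEV (limma adjusted p = 0.128). JUN and CEBPD were named for their small p in this comparison, so nothing is read from their separation. Over all tested genes, 10.9% were separate and higher in TIS sEV than in Cont sEV, and 4.47% separate and lower in Cont sEV than in No sEV. The share with both was not counted. CEBPB averaged 66.4 ± 2.16 TPM in TIS sEV, 59.2 ± 3.81 TPM in Cont sEV and 62.7 ± 2.06 TPM in No sEV. DUSP1, a phosphatase that switches off MAP kinases, averaged 148 ± 1.99, 138 ± 1.72 and 141 ± 2.14 TPM in the same groups.

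The cytokines of that list ran in another order. IL1B averaged 268 ± 4.73 TPM in TIS sEV, 259 ± 6.36 TPM in Cont sEV and 244 ± 6.46 TPM in No sEV, and IL1A 157 ± 5.56, 148 ± 2.27 and 142 ± 3.61 TPM. TIS sEV minus No sEV was 0.13 for IL1B and 0.15 for IL1A, each with a limma adjusted p of 0.318. FOSL1, another AP-1 subunit, averaged 442 ± 9.61 TPM in TIS sEV, 423 ± 8.16 TPM in Cont sEV and 403 ± 7.90 TPM in No sEV. NFKBIA, the inhibitor that NF-kB induces, averaged 209.6 ± 1.85 TPM in TIS sEV, 219 ± 3.29 TPM in Cont sEV and 215 ± 1.57 TPM in No sEV. None of these 4 was called in any comparison.

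**Figure D4:**
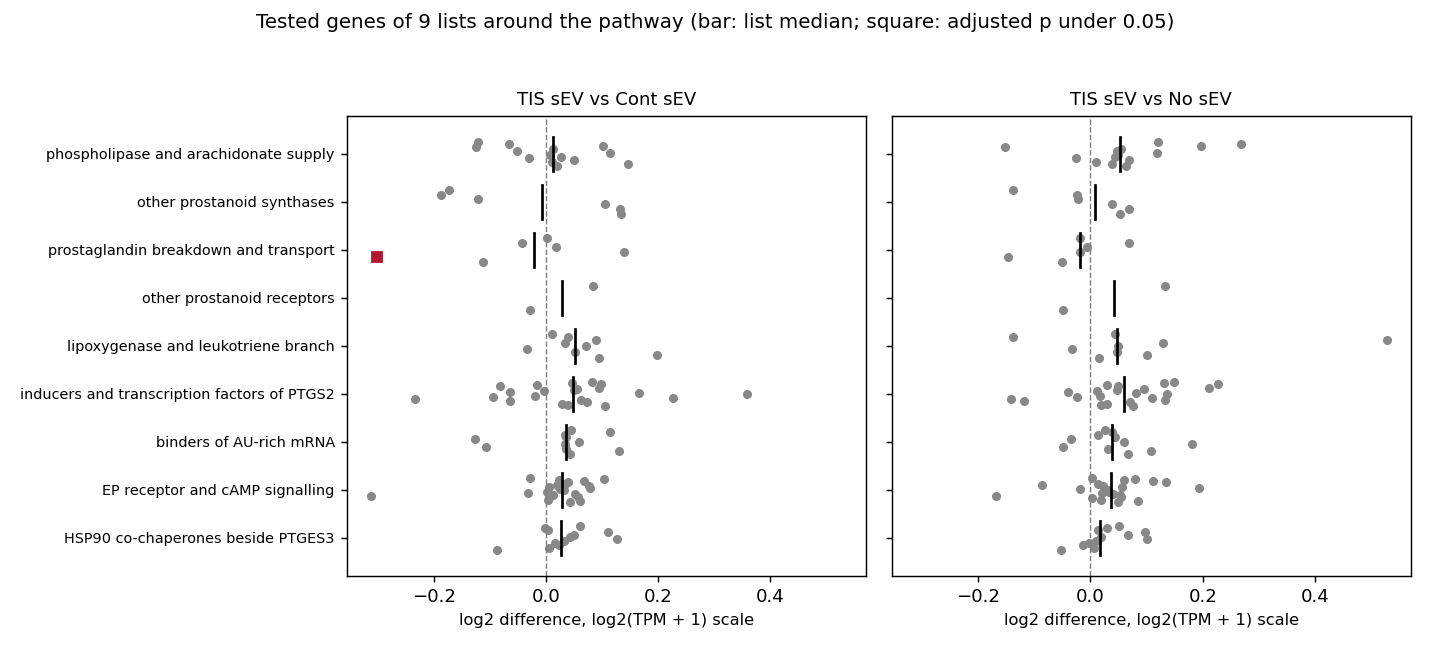
Difference in log2(TPM + 1) for TIS sEV against Cont sEV (left) and TIS sEV against No sEV (right) of every tested gene in 9 of the 10 lists; each point is a gene, the short bar is the median of the list, the dashed line marks 0 and a square marks an adjusted p under 0.05 in limma. The square is SLCO4A1, at -0.30 between TIS sEV and Cont sEV.

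In the arachidonic acid supply list, 14 of 19 genes passed the filter and 0 were called. Of the 14, 9 were higher and 5 lower in TIS sEV than in Cont sEV, with a median of 0.01. An unadjusted p under 0.05 was reached by 1. Over all tested genes, the median was 0.02, 59.6% were higher and 10.0% reached that level. ANXA1, which encodes an annexin that restrains phospholipase A2, averaged 1228 ± 19.7 TPM in TIS sEV, 1221 ± 7.55 TPM in Cont sEV and 1187 ± 14.8 TPM in No sEV. MBOAT7, an acyltransferase that puts arachidonic acid back into membrane lipids, averaged 208 ± 3.67, 206 ± 12.4 and 199 ± 4.19 TPM, and MBOAT2 of the same family 32.5 ± 1.93, 29.3 ± 1.49 and 31.6 ± 0.954 TPM. PLAAT3, a phospholipase, averaged 128 ± 4.67 TPM in TIS sEV, 126 ± 4.98 TPM in Cont sEV and 123 ± 1.01 TPM in No sEV, PLAA, the phospholipase A2 activating protein, 36.8 ± 1.91, 33.95 ± 2.55 and 33.8 ± 0.726 TPM, and PLA2G6, a calcium-independent phospholipase, 2.64 ± 0.404, 2.80 ± 0.216 and 2.01 ± 0.104 TPM. The secreted phospholipase genes PLA2G2A and PLA2G10 were listed at 0 in every library. On the lipoxygenase side, which takes the same substrate to leukotrienes, 9 of 16 genes passed. In TIS sEV 8 of the 9 were higher than in Cont sEV, beside 59.6% of all tested genes, with a median of 0.05. Of the 9, 0 were called and 1 had an unadjusted p under 0.05, beside 10.0% of all tested genes. LTA4H, which makes leukotriene B4, averaged 168 ± 1.404 TPM in TIS sEV, 160 ± 3.14 TPM in Cont sEV and 163 ± 3.92 TPM in No sEV. MGST3 and MGST2, glutathione transferases of the leukotriene branch, averaged 139 ± 6.95 and 48.8 ± 4.26 TPM in TIS sEV, 134 ± 3.04 and 49.9 ± 1.59 TPM in Cont sEV, and 134 ± 3.33 and 49.9 ± 2.13 TPM in No sEV. ALOX12B, a skin lipoxygenase, was low and scattered, at 1.84 ± 1.11, 1.53 ± 0.452 and 0.900 ± 0.510 TPM.

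Of the other prostanoid receptors 2 of 9 passed the filter. TBXA2R, the thromboxane receptor, averaged 1.25 ± 0.192 TPM in TIS sEV, 1.12 ± 0.181 TPM in Cont sEV and 1.05 ± 0.158 TPM in No sEV, and PTGFRN, a protein associated with the prostaglandin F receptor, averaged 6.41 ± 0.096, 6.57 ± 0.479 and 6.67 ± 0.363 TPM. In the EP receptor and cyclic AMP list 22 of 23 genes passed, and 19 were higher and 3 lower in TIS sEV than in Cont sEV. The list median was 0.03 beside 0.02 over all tested genes, of which 59.6% were higher. From this list 0 were called and 2 had an unadjusted p under 0.05, beside 10.0% of all tested genes. GNAS, the G protein subunit that couples EP4 to adenylyl cyclase, averaged 1067 ± 6.74 TPM in TIS sEV, 1088 ± 63.8 TPM in Cont sEV and 1064 ± 24.0 TPM in No sEV, GNAI2, an inhibitory subunit, 247 ± 4.39, 247 ± 9.02 and 244 ± 9.46 TPM, and PRKAR1A, a regulatory subunit of protein kinase A, 199 ± 1.17, 189 ± 3.21 and 196 ± 8.57 TPM. CREM, a transcription factor of cyclic AMP signalling, averaged 70.2 ± 2.40, 66.4 ± 2.17 and 61.3 ± 4.55 TPM. NR4A2, a nuclear receptor gene induced by cyclic AMP, had 3.70, 3.32 and 3.66 TPM in TIS sEV, against 4.80, 4.50 and 4.68 TPM in Cont sEV and 4.33, 3.78 and 4.28 TPM in No sEV. Its 3 Cont sEV libraries were above the 6 others, as for 1.53% of all tested genes, and TIS sEV minus Cont sEV was -0.31 (limma adjusted p = 0.245).

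All 11 genes for binders of AU-rich mRNA passed the filter, and 9 were higher and 2 lower in TIS sEV than in Cont sEV. Their median was 0.04 beside 0.02 over all tested genes, of which 59.6% were higher. Of the 11, 0 were called and 1 had an unadjusted p under 0.05, beside 10.0% of all tested genes. HNRNPD, or AUF1, averaged 391 ± 7.12 TPM in TIS sEV, 357 ± 10.4 TPM in Cont sEV and 363 ± 18.0 TPM in No sEV, a difference of 0.13 between TIS sEV and Cont sEV (limma adjusted p = 0.287). KHSRP averaged 431 ± 11.8, 420.3 ± 7.01 and 422 ± 9.44 TPM, ZFP36L1 268 ± 4.98, 262 ± 4.63 and 266 ± 0.878 TPM, and CELF1 39.98 ± 1.68, 39.0 ± 1.67 and 35.2 ± 1.77 TPM. Several of these proteins shorten the life of the mRNAs they bind. ZFP36, or tristetraprolin, averaged 38.2 ± 1.42 TPM in TIS sEV, 35.2 ± 2.65 TPM in Cont sEV and 37.1 ± 1.16 TPM in No sEV.

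PTGES3 belongs to the HSP90 machinery, so its partners are given beside it. All 12 of them passed the filter, and 10 were higher and 2 lower in TIS sEV than in Cont sEV. Their median was 0.03 beside 0.02 over all tested genes, of which 59.6% were higher. Of the 12, 0 were called and 4 had an unadjusted p under 0.05, beside 10.0% of all tested genes. HSP90AB1 and HSP90AA1, the HSP90 genes themselves, averaged 1776 ± 25.8 and 1324 ± 17.6 TPM in TIS sEV, 1777 ± 14.8 and 1270.04 ± 25.4 TPM in Cont sEV, and 1741 ± 17.0 and 1279 ± 33.4 TPM in No sEV. HSPA8, the constitutive member of the HSP70 family, had 1653, 1637 and 1626 TPM in TIS sEV, against 1742, 1750.1 and 1729 TPM in Cont sEV and 1710.4, 1710.5 and 1675 TPM in No sEV. HSPA8 had its Cont sEV libraries above the 6 others, as did 1.53% of all tested genes. Its TIS sEV libraries were below the 6 others, with a TIS sEV minus Cont sEV difference of -0.09 (limma adjusted p = 0.207). Separate and lower in TIS sEV were 4.47% of all tested genes against Cont sEV and 2.77% against No sEV. FKBP5, which binds HSP90 with steroid receptors, averaged 32.4 ± 0.703 TPM in TIS sEV, 29.6 ± 1.03 TPM in Cont sEV and 30.1 ± 0.836 TPM in No sEV, and AHSA1, which speeds up HSP90, averaged 360.5 ± 16.3, 334 ± 12.3 and 337 ± 8.27 TPM. Of the 9 antisense, paralog and pseudogene partners of the members, 3 passed the filter and 0 were called in any comparison; beside PTGES3P1 these were PTGES3L, a PTGES3-like gene, at 1.34 ± 0.143, 1.23 ± 0.160 and 1.60 ± 0.363 TPM in TIS sEV, Cont sEV and No sEV, and its readthrough PTGES3L-AARSD1, at 1.51 ± 0.374, 1.37 ± 0.313 and 0.879 ± 0.153 TPM. By unadjusted p under 0.05 the 3 numbered 0 between TIS sEV and Cont sEV and 1 between TIS sEV and No sEV. The shares of all tested genes at that level were 10.0% and 7.97%.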

How the data were processed

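The authors deposited 1 table of TPM per gene. Software named in the submitters' processing notes comprises DESeq2 1.28.0, Salmon 1.4.0, Trim Galore 0.6.6 and FastQC 0.11.9, on GRCh38.p13; which annotation release was used is not given there. No count model was used, because TPM keeps no depth. Symbols were matched by Ensembl ID (99.51%); gene coordinates and 3′ regions are from GENCODE 29 (GRCh38), promoters from RefSeq (GRCh38.p14).

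The 13879 genes reaching 1 TPM in 3 or more libraries were tested on log2(TPM + 1), which understates changes of low genes. limma 3.58.1 (R 4.3.3, variance trend) fitted all 9 libraries, two-sided, with Benjamini-Hochberg adjustment over all genes at 0.05, and was checked on simulated data. The members and lists were chosen with earlier results of these data known. List genes named were those called, up to 3 of highest TPM and up to 2 of smallest p in each TIS sEV comparison; CEBPB, DUSP1, PACERR and the list genes below the filter were named after their values were seen. One gene that the likeness rule picked is not reported here. Figures used matplotlib 3.10.9.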

Additional observations from a re-analysis of the deposited data

How the results depend on the processing

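Between TIS sEV and Cont sEV, the 13 calls became 2 with a constant prior variance and 3 with only both groups compared in the fit, and with 1 library left out they ran from 2 to 13: 2 without TIS sEV replicate 1 or Cont sEV replicate 2, 3 without Cont sEV replicate 3 or No sEV replicate 3, 4 without TIS sEV replicate 2, 7 without TIS sEV replicate 3 and 8 without No sEV replicate 1. Between TIS sEV and No sEV, the 1 call became 9 without a filter, 0 with a constant prior variance, 2 with only both groups compared, and 1 to 2 with a library left out. Between Cont sEV and No sEV, the 0 calls became 7 without a filter, 1 with a filter at 5 TPM, and 0 to 1 with a library left out. The cause was not tested. PTGS2 ranged from -0.20 to -0.16 for TIS sEV minus Cont sEV and from 0.17 to 0.21 for Cont sEV minus No sEV over 20 alternatives; for TIS sEV minus No sEV it was -0.0268 after median-of-ratios rescaling, against 0.01 as reported, and had the other sign in 4 of 20. JUN was called with a filter at 5 TPM (limma adjusted p = 0.0426; range over alternatives 0.0426 to 0.263). PTGS2 was called between TIS sEV and Cont sEV in 2 of the 20 alternatives, median-of-ratios rescaling and quantile normalization. It was called in 0 for both other comparisons, and the other members in 0 for all 3. PTGS2 was picked for its pattern, so nothing is read from these calls. Of 417 member values under the alternatives, 415 moved by less than the replicate SD. Many of these could not move. A member's difference is fixed when only the filter, the prior variance or a replicate block changes. The same holds when only the groups compared are fitted, or when a library of the group not compared is left out. The count is therefore no measure of how stable the members are.

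Same-numbered libraries of different groups deviated together at r of -0.06 to 0.14, and differently numbered ones at -0.19 to 0.21. No shared deviation by number was thus seen, which cannot settle whether the libraries were prepared in pairs. Each replicate number occurs once in every group, so a replicate block cannot change a difference between group means. The -0.18 of PTGS2 for TIS sEV minus Cont sEV was thus fixed under the block. With the block, 9 genes were called in that comparison and SLCO4A1 was not (limma adjusted p = 0.0513).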
